A study of Mus musculus with 42 samples.

Results

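The Gsc-positive (G+) cells of days 3 and 4 (d3, d4) of anterior definitive endoderm (ADE) differentiation were compared, using the 3 arrays of d4 G+ and the 3 arrays of d3 G+, 6 of the 42 arrays of the series, chosen by their labels. The cells came from mouse embryonic stem cells (mESCs) of a B6 line that carries GFP knocked in at Gsc and RedStar knocked in at Hhex, so both groups share these reporter alleles, no drug was added to either, and each group holds 3 independent experiments with this 1 line. G+ cells were sorted by the Gsc reporter on each day, and the G- cells of the same days were sorted as reporter negative. Total RNA was labelled with Cy3 and hybridised to one-colour Agilent arrays, and the values below are log2 intensity after quantile normalisation, or differences between such values (log2 change, d4 minus d3). The comparison asks how far the early G+ population moves in 1 day of differentiation, and in which direction its mesoderm and endoderm genes go.

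In the gastrulating embryo, epiblast cells enter the primitive streak under Nodal, Wnt and FGF signals and switch on T (Brachyury), Eomes and Mixl1. Cells that leave the anterior streak switch on Foxa2, Gsc and Lhx1, and later Sox17 and Hhex as they become definitive endoderm, whereas cells that leave more posterior parts of the streak form paraxial, lateral and cardiac mesoderm. Gsc encodes a homeobox transcription factor of the early anterior streak, and it is the gene by which these cells were sorted.

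Gsc itself served as the check of the sort. Its level was 11.28, 12.08 and 11.97 on replicates 1 to 3 of d3 G+ and 11.55, 11.74 and 11.85 on those of d4 G+. The groups overlapped, and the log2 change was -0.07 (SE 0.47, limma adjusted p = 1). At the same stages the G- cells had a mean of 8.23 at d3 and 9.30 at d4, below all 6 G+ arrays. Between 26569 and 37928 of 55681 probes were well above background on the 6 arrays, and 0 spots were saturated. Replicate 1 of both days was hybridised on 1 slide and replicate 3 of both days on another, whereas the replicate 2 arrays lay on 2 different slides.

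The arrays did not separate cleanly by day. Over 21426 genes, the Euclidean distance of d4 G+ replicate 2 was 52.7, 52.3 and 62.4 to replicates 1 to 3 of d3 G+, and between 60 and 63.9 to the other d4 G+ arrays. It thus lay nearer to 2 of the d3 arrays than to its own group. Array d4 G+ replicate 3 was likewise nearest to d3 G+ replicate 3, its neighbour on the slide, at 58.2. Array d3 G+ replicate 1 differed from the other d3 arrays in anterior streak genes: Foxa2, a forkhead factor needed for endoderm, was at 9.69 there and at 11.81 and 11.77 on replicates 2 and 3. Lhx1, a LIM homeobox factor of the anterior streak, was at 9.85 on that array and at 11.91 and 11.50 on the others. The number of genes that passed is therefore given with and without these arrays, as are the counts of the main gene lists. Because d4 G+ replicate 2 was picked for lying near d3, leaving it out tends to widen the difference between the days. Larger counts without it are thus no independent support. Likewise d3 G+ replicate 1 was picked for low Foxa2 and Lhx1, so leaving it out raises the d3 means of these genes. Counts without it, in lists that hold these genes, are no independent support either. List counts without other single arrays are not given.

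The change in 1 day was small. Among genes that differed by at least 1.5 on the log2 scale at a limma adjusted p no larger than 0.01, 5 of 21426 genes were higher at d4 (0.0233%) and 3 were lower (0.014%). The genes that rose were Sfrp5, Wt1, Col8a2, Scn4b and Adora1, and those that fell were Arg1, Dnd1 and a transcript known here only by its RefSeq identifier NM_007845. At a limma adjusted p of at most 0.05 with no minimum size, 36 genes rose (0.168%) and 22 fell (0.103%), 58 in all (0.271%), and 35 of the 36 and 22 of the 22 moved the same way in all 9 pairs of a d4 and a d3 array. Foxq1 was the exception, at 8 of 9 pairs. Of all genes, 5.72% were higher and 6.87% lower in all 9 pairs. The 58 genes were chosen by a test on the same arrays, so their agreement over the pairs is no independent support. In sorted populations such as these, a change in the share of a cell type cannot be told apart from a change in RNA per cell. The median log2 change of all genes was 0.00, with the 5th percentile at -0.47 and the 95th at 0.41, and 323 genes had an absolute change of at least 1.

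The calls depended on single arrays. Without d4 G+ replicate 2, 23 genes were called higher and 23 lower, and at an adjusted p of at most 0.05 the numbers were 92 and 125, which included all 36 and 22 of the full comparison. With d4 G+ replicate 1 left out instead, 0 genes were called in either direction, and 3 higher and 0 lower remained at the looser threshold. Without d4 G+ replicate 3, 3 were called higher and 0 lower, with 3 and 0 at the looser threshold. Without d3 G+ replicate 1 there were 4 and 0 calls (6 and 0 at the looser threshold), without d3 G+ replicate 2 there were 4 and 0 (8 and 6), and without d3 G+ replicate 3 there were 3 and 3 (12 and 22). With both d4 G+ replicate 2 and d3 G+ replicate 1 left out, 12 genes were called higher and 3 lower. A limma fit to the 6 arrays alone gave 0 genes at an adjusted p of at most 0.05 (lowest 0.122), with 2704 probes at an unadjusted p under 0.05. The full fit had 3183 such probes. Of the 58 genes at an adjusted p of at most 0.05, d4 G+ replicate 2 was the d4 array nearest to the d3 mean for 56. The part of this array in the small counts was not tested. Sfrp5, Wt1 and Col8a2 kept an adjusted p of at most 0.05 in 18 of 20 settings, and the other 5 called genes in 14 or 15.

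**Figure D1:**
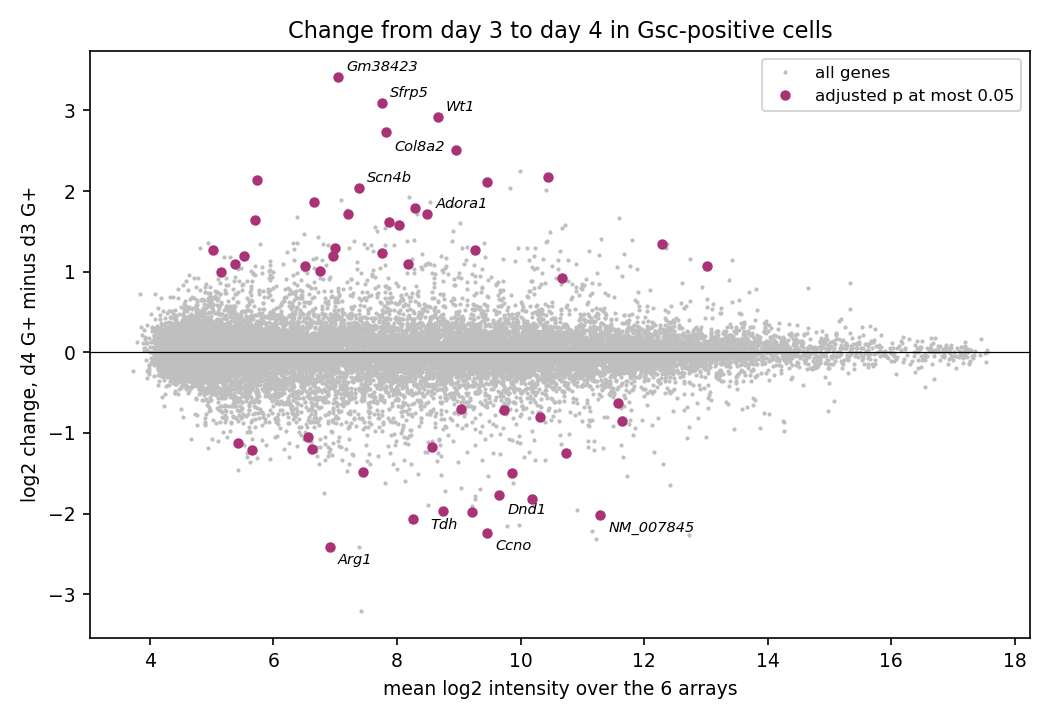
Log2 change between d3 G+ and d4 G+ (vertical) against the mean log2 intensity over the 6 arrays (horizontal), 1 point per gene, with the genes whose brightest probe had a limma adjusted p of at most 0.05 in purple (30 higher and 21 lower). Most genes lie near 0, and the named genes, from Gm38423 at 3.41 to Arg1 at -2.42, stand apart from the cloud at low and middle levels.

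Sfrp5 encodes a secreted Wnt antagonist of the anterior endoderm. Its level was 5.57, 6.60 and 6.43 on the d3 arrays and 10.10, 8.30 and 9.48 on the d4 arrays. All d4 arrays were above all d3 arrays, and replicate 2 was the lowest of the d4 arrays. The log2 change was 3.09 (SE 0.41, limma adjusted p = 0.000235), or 8.53-fold.

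Wt1, a zinc finger transcription factor of mesoderm-derived tissues such as the kidney and the epicardium, was at 7.24, 7.40 and 6.96 at d3 and at 10.51, 9.59 and 10.28 at d4. The groups were far apart, with no overlap. The log2 change was 2.92 (SE 0.38, limma adjusted p = 0.000235). Col8a2, a chain of a non-fibrillar collagen, was at 6.21, 6.52 and 6.68 at d3 and at 9.61, 8.45 and 9.53 at d4. Again replicate 2 was the lowest d4 array and there was no overlap. Its log2 change was 2.73 (SE 0.35, limma adjusted p = 0.000235), whereas a second Col8a2 probe gave 0.55 (SE 0.17, limma adjusted p = 0.315).

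Scn4b encodes an accessory subunit of voltage-gated sodium channels and Adora1 encodes an adenosine receptor. Scn4b was at 6.05, 6.59 and 6.45 at d3 and at 8.87, 7.43 and 8.91 at d4 (log2 change 2.04, SE 0.33, limma adjusted p = 0.00604). Adora1 was at 7.08, 8.19 and 7.62 at d3 and at 10.02, 8.44 and 9.57 at d4 (log2 change 1.71, SE 0.30, limma adjusted p = 0.00884). For Adora1 the gap between the groups was narrow, with d4 replicate 2 just above d3 replicate 2.

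Arg1 encodes arginase, the enzyme that splits arginine into ornithine and urea. It was at 9.18, 7.60 and 7.59 at d3 and at 4.70, 6.79 and 5.63 at d4, where 2 of 3 arrays were well above background. The log2 change was -2.42 (SE 0.43, limma adjusted p = 0.00969), and the highest d4 array, replicate 2, lay below the lowest d3 array. Dnd1, an RNA-binding protein of the germ line, was at 10.76, 10.57 and 10.29 at d3 and at 8.16, 9.45 and 8.71 at d4 (log2 change -1.77, SE 0.29, limma adjusted p = 0.00675). NM_007845 was at 13.16, 11.70 and 12.04 at d3 and at 9.66, 11.06 and 10.12 at d4 (log2 change -2.02, SE 0.35, limma adjusted p = 0.00911). In all 3 genes that fell, replicate 2 was the d4 array nearest to d3.

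**Figure D2:**
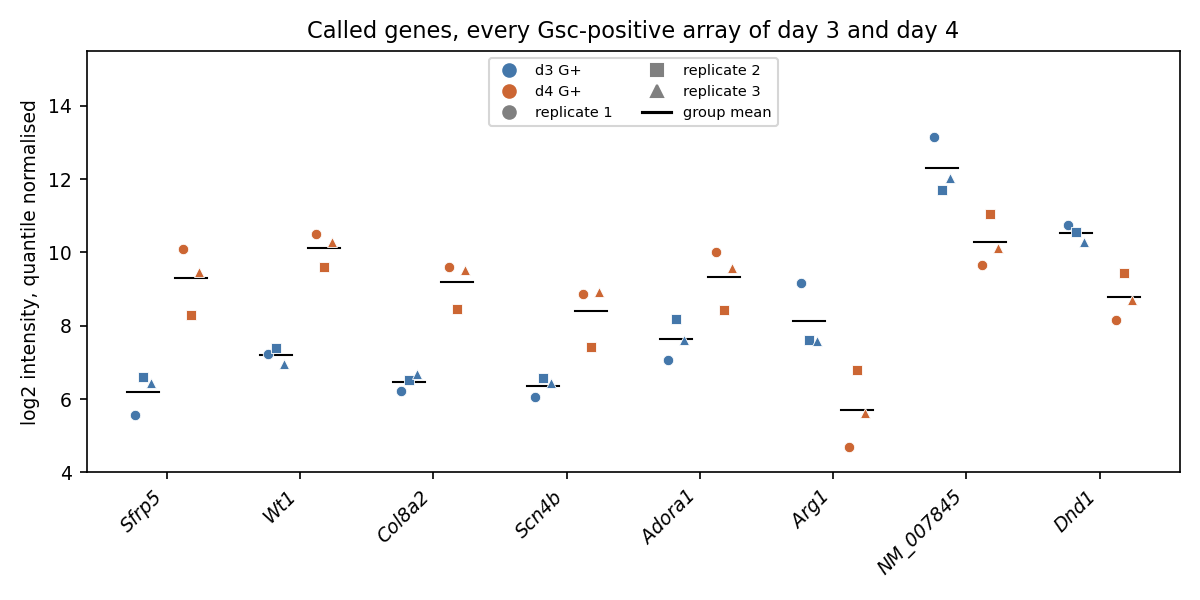
Log2 intensity of the 8 called genes on each of the 6 arrays, with d3 G+ in blue, d4 G+ in orange, symbols for replicates 1 to 3 and bars for group means. No gene shows overlap between the days, and the square of d4 G+ replicate 2 is the d4 point closest to d3 in each gene.

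Within the slide that held both replicate 1 arrays the d4 minus d3 difference was 4.52 for Sfrp5, 3.26 for Wt1, 3.40 for Col8a2 and -4.48 for Arg1. Within the slide of the replicate 3 arrays the differences were 3.06, 3.32, 2.85 and -1.96. For the other called genes they were 2.83 and 2.46 (Scn4b), 2.94 and 1.95 (Adora1), -2.60 and -1.59 (Dnd1) and -3.50 and -1.93 (NM_007845). None of the called genes overlapped between the days, so the shared direction on both slides was fixed in advance. It is thus no check of the calls. With slide as a fixed block Sfrp5, Wt1, Col8a2 and Scn4b passed both thresholds. The limma adjusted p was 0.0178 for Adora1, 0.0261 for Arg1, 0.0153 for Dnd1 and 0.0163 for NM_007845, which met the looser threshold but not the stricter one.

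The start regions of the genes that rose are shown because these genes passed the test in the same direction. RefSeq promoter windows of build GRCm38.p6, from 250 bases before to 50 bases after the start site, were found for Sfrp5 (chr19:42202203-42202502, minus strand), Col8a2 (chr4:126286544-126286843, plus strand), Scn4b (chr9:45138374-45138673, plus strand) and Adora1 (chr1:134235408-134235707, minus strand, the first of 2 listed starts), but not for Wt1, Arg1 and Dnd1. Capitals mark the GATA motif AGATAA, the GC box GGGCGG and the TATA box TATAAA on either strand:
Sfrp5: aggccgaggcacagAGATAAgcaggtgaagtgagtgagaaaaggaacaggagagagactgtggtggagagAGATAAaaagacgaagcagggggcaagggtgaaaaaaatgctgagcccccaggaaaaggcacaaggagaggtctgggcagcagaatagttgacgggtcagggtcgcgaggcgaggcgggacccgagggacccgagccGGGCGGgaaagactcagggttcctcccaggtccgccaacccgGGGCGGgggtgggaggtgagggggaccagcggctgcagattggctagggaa
Col8a2: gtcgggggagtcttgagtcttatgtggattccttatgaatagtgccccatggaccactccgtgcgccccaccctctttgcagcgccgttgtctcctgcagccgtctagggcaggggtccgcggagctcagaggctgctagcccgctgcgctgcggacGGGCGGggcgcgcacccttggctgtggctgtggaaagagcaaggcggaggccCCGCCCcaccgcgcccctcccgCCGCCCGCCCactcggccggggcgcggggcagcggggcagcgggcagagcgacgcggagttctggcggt
Scn4b: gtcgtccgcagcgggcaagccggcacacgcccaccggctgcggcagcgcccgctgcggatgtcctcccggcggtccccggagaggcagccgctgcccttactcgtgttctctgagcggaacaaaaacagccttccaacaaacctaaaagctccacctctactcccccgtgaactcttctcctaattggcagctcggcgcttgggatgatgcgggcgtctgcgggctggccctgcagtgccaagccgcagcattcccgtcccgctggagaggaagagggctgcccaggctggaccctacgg
Adora1: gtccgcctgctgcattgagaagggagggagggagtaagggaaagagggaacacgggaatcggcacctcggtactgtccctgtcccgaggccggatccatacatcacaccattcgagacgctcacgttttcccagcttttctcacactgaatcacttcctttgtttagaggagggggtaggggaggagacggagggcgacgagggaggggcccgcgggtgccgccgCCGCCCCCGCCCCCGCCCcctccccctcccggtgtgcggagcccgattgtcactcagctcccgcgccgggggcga

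The Sfrp5 window held 2 GATA motifs and 2 GC boxes, the Col8a2 window 4 GC boxes, of which 2 overlap, and the Adora1 window 3 GC boxes. The Scn4b window held none of the 3 motifs, and none of the 4 windows held the TATA letters. Of 32851 promoter windows of this length, 11.2% held the GATA letters, 35.7% the GC box and 13.6% the TATA letters. The matches are descriptions of sequence and were not tested for binding.

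Among the other genes that rose at the looser threshold, several are transcription factors or signalling components of mesoderm and endoderm. Gata1, a zinc finger factor of blood formation, was at 4.54, 5.05 and 5.08 at d3, where 1 of 3 arrays was well above background, and at 6.95, 5.99 and 6.65 at d4 (log2 change 1.64, SE 0.35, limma adjusted p = 0.0434). Foxf2, a forkhead factor of lateral and gut mesenchyme, was at 6.03, 5.72 and 5.44 at d3 and at 8.10, 6.97 and 7.71 at d4 (log2 change 1.86, SE 0.40, limma adjusted p = 0.0482). Fgfr3, an FGF receptor, was at 7.27, 7.38 and 7.08 at d3 and at 9.70, 8.19 and 8.58 at d4 (log2 change 1.58, SE 0.33, limma adjusted p = 0.0419). None of these groups of arrays overlapped. A second Fgfr3 probe gave 0.39 (SE 0.31, limma adjusted p = 1). Flrt3, a membrane protein that binds FGF receptors, passed with 2 probes, at 1.56 (limma adjusted p = 0.0442) and 1.52 (0.0362), but not with the probe of the highest mean (1.38, 0.0798). Runx1, a factor of blood stem cell emergence, passed with 1 probe at 1.79 (limma adjusted p = 0.0482) and not with the brighter one at 1.5 (0.3).

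Other large rises were those of Gm38423 (log2 change 3.41, SE 0.61, limma adjusted p = 0.0114), Capn6, a calpain family member (2.51, SE 0.50, limma adjusted p = 0.0291), Padi3, a peptidylarginine deiminase (2.11, SE 0.46, limma adjusted p = 0.0483), Parm1 (1.79, SE 0.33, limma adjusted p = 0.0131) and Ptprb, a receptor phosphatase of endothelium (1.71, limma adjusted p = 0.0291). A second Ptprb probe gave 0.26 (SE 0.21, limma adjusted p = 1) and a second Gm38423 probe 1.85 (SE 0.45, limma adjusted p = 0.0889). Car4 rose by 2.32 with 1 probe (SE 0.48, limma adjusted p = 0.036). Its brightest probe changed by 0.49 to 0.92 over 20 settings and passed the looser threshold in 0 of them. Gm11757 was not well above background on any d3 array and was so on 2 of 3 d4 arrays, and was at least 4.23-fold higher at d4 (limma adjusted p = 0.0482). The bound sets the d4 mean against the dimmest probes above background on the d3 arrays. On d4 replicate 2 Gm11757 was at 5.10, near its highest d3 value of 5.05.

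Tdh was among the genes that fell at the looser threshold. Tdh, the threonine dehydrogenase on which mESCs depend, was at 10.94, 10.30 and 9.35 at d3 and at 7.56, 8.92 and 8.18 at d4 (log2 change -1.98, SE 0.40, limma adjusted p = 0.0291), and its second probe gave -1.87 (0.0158). Ccno, an atypical cyclin, had a log2 change of -2.24 (SE 0.44, limma adjusted p = 0.0251). Aqp3, a water and glycerol channel, had one of -2.07 (SE 0.43, limma adjusted p = 0.0383). Ptgs1, a cyclooxygenase, had one of -1.97 (SE 0.41, limma adjusted p = 0.0362) and Car3, a carbonic anhydrase, one of -1.82 (SE 0.39, limma adjusted p = 0.0428). Cabp1, Gabrb2, Neurl1a and Hmcn1 also fell, by 1.5, 1.48, 1.25 and 1.21 on the log2 scale. The 2 days did not overlap for the probes given. A second probe of Hmcn1 gave 0.20 (SE 0.33, limma adjusted p = 1) with overlap and a second probe of Cabp1 gave -0.28 (SE 0.20, limma adjusted p = 1), whereas that of Neurl1a gave -1.21 (limma adjusted p = 0.0134).

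Mesoderm and endoderm genes did not move as 2 blocks. Of the genes of the primitive streak, T was at 13.62, 13.10 and 12.99 at d3 and at 10.97, 12.46 and 11.37 at d4. All d4 arrays lay below all d3 arrays, with a log2 change of -1.64 (SE 0.50), but the limma adjusted p was 0.288. It was 0.0743 without d4 G+ replicate 2, the lowest over its alternatives. Cdx1, a posterior homeobox gene, was at 11.26, 10.81 and 11.39 at d3 and at 8.89, 9.53 and 9.33 at d4, with a log2 change of -1.90 (SE 0.44) at a limma adjusted p of 0.0706. Mixl1 and Eomes, which act in both mesoderm and endoderm, had log2 changes of 0.05 (SE 0.34) and 0.15 (SE 0.33), with overlapping arrays and a limma adjusted p of 1 each. Of the 20 measured primitive streak regulators, 0 passed either threshold; 6 were lower at d4 with no overlap (30%) and 1 was higher (5%), against 6.87% and 5.72% of all genes. The list median was -0.27, beside 0.00 over all genes. Without d4 G+ replicate 2, 10 were lower (50%, against 14.6% of all genes) and 1 was higher (5%, against 11.6%). With d3 G+ replicate 1 also left out 15 were lower (75%, against 19.6%) and 1 was higher (5%, against 16.2%). That array was picked for low Foxa2 and Lhx1, which are in this list, so the larger count is no independent support. In G- cells the list median was 0.33, the other direction from G+ cells, and the difference between the list medians was not tested. There 4 genes were higher without overlap and 0 lower (against 4.19% and 7.24% of all genes).

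Genes of paraxial mesoderm had a median log2 change of -0.24 over 18 measured genes, of which 2 were lower without overlap (11.1%, against 6.87% of all genes) and 1 was higher (5.56%, against 5.72%). This count changed with the arrays used. Without d4 G+ replicate 2, 9 were lower (50%, against 14.6% of all genes) and 1 was higher. With d3 G+ replicate 1 also left out 12 were lower (66.7%, against 19.6%) and 1 was higher. In G- cells the list median was 0.11, with 0 genes without overlap in either direction. Aldh1a2, the enzyme that makes retinoic acid in early mesoderm, was at 8.04, 7.74 and 7.53 at d3 and at 5.95, 7.42 and 5.95 at d4. Its log2 change was -1.33 (SE 0.32) at a limma adjusted p of 0.0863, with replicate 2 close to the d3 arrays, and it fell by 1.82 without that array (limma adjusted p = 0.00198, range over its alternatives 0.00198 to 0.759). Tcf15, a basic helix-loop-helix factor, had a log2 change of -1.1 (limma adjusted p = 0.38) and Meox1, a homeobox factor of somites, one of 1.16 (limma adjusted p = 0.575). Mesp1 was at 12.42, 13.43 and 13.61 at d3 and at 13.11, 13.31 and 12.51 at d4, with overlap (log2 change -0.18, SE 0.72, limma adjusted p = 1). Tbx6 had a log2 change of -0.99 (SE 0.38, limma adjusted p = 0.587), with d4 higher in 1 of 9 pairs.

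Genes of lateral and cardiac mesoderm lay in the other direction. Of 20 measured, 8 were higher at d4 without overlap (40%, against 5.72% of all genes) and 0 were lower (against 6.87%), and the list median was 0.31, but 0 passed either threshold. Without d4 G+ replicate 2 the counts were 9 and 1 (45% and 5%, against 11.6% and 14.6% of all genes). With d3 G+ replicate 1 also left out they were 9 and 3 (45% and 15%, against 16.2% and 19.6%). The 8 of the full comparison were Foxf1, Hand2, Msx2, Gata4, Tbx20, Tbx5, Tbx3 and Hand1, with log2 changes from 0.80 to 1.30. Hand2, a factor of heart and limb mesoderm, was at 6.53, 6.93 and 7.14 at d3 and at 8.32, 8.01 and 8.14 at d4 (log2 change 1.29, SE 0.62, limma adjusted p = 0.857). Foxf1, a forkhead factor of lateral plate mesoderm, was at 8.32, 8.22 and 8.67 at d3 and at 10.25, 9.65 and 9.21 at d4 (log2 change 1.30, SE 0.76, limma adjusted p = 1). A second Foxf1 probe gave 0.13, higher in 6 of 9 pairs. The 2 probes of Kdr, a receptor of vascular mesoderm, differed. The brighter one gave a log2 change of 0.11 (SE 0.20, limma adjusted p = 1) with overlap, and the other was at 9.71, 11.24 and 10.71 at d3 and at 12.69, 11.81 and 11.56 at d4, with no overlap (log2 change 1.47, SE 0.81, limma adjusted p = 1). In G- cells the list median from d3 to d4 was 0.48, with 7 genes higher without overlap (against 4.19% of all genes) and 0 lower (against 7.24%). Of the 21 genes the study lists as mesoderm markers, 6 were higher and 3 lower without overlap, with a median of -0.01. These are 28.6% and 14.3%, against 5.72% and 6.87% of all genes.

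Of the transcription factors of the anterior streak and endoderm, 0 of 18 passed either threshold, and the median log2 change was 0.12. Without overlap 1 was higher and 2 were lower (5.56% and 11.1%, against 5.72% and 6.87% of all genes). Without d4 G+ replicate 2 these counts were 2 and 2 (11.1% each, against 11.6% and 14.6%). With d3 G+ replicate 1 also left out they were 2 and 5 (11.1% and 27.8%, against 16.2% and 19.6%). That array was picked for low Foxa2 and Lhx1, which are among these factors, so this count is no independent support. Gata4, which acts in endoderm and heart, was at 9.54, 10.93 and 10.54 at d3 and at 12.09, 11.25 and 10.96 at d4 (log2 change 1.1, SE 0.47, limma adjusted p = 0.739). Sox17, the endoderm-defining HMG factor, was at 5.40, 7.93 and 6.39 at d3 and at 9.20, 6.60 and 7.80 at d4, higher in 7 of 9 pairs (log2 change 1.29, SE 0.43, limma adjusted p = 0.394). Both days thus spanned a wide range of Sox17. Without d4 G+ replicate 2 Sox17 rose by 1.92 (SE 0.41, limma adjusted p = 0.0196, range over its alternatives 0.0196 to 1).

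Foxa2, Lhx1, Otx2, Hhex and Gata6 had log2 changes of 0.51 (SE 0.63), -0.01 (SE 0.47), 0.31 (SE 0.57), -0.03 (SE 0.40) and -0.40 (SE 0.33), all with overlapping arrays and a limma adjusted p of 1. The 95% interval of the Foxa2 change ran from -0.78 to 1.80 and that of Hhex from -0.84 to 0.79. For Foxa2, Lhx1 and Otx2 the lowest of the 6 arrays was d3 G+ replicate 1. Cxcr4, the chemokine receptor used as a surface marker of mesendoderm, was at 7.41, 9.0 and 8.33 at d3 and at 9.56, 9.15 and 9.19 at d4, with no overlap (log2 change 1.05, SE 0.40, limma adjusted p = 0.598). Its fellow receptor Ackr3 had a log2 change of 1.87 (SE 0.49, limma adjusted p = 0.158), also with no overlap.

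Among 10 secreted antagonists of the anterior endoderm, Sfrp5 alone passed either threshold. Cer1, an antagonist of Nodal, BMP and Wnt, was at 6.88, 9.78 and 9.15 at d3 and at 8.72, 8.13 and 9.88 at d4 (log2 change 0.31, SE 0.86, limma adjusted p = 1). Lefty1, Fst and Lefty2, which antagonise Nodal and activin signals, were lower at d4 without overlap, with log2 changes of -1.53, -0.95 and -0.73 at limma adjusted p values of 0.704, 0.541 and 1. Of the 34 genes that the study lists for definitive endoderm, Sfrp5 was also the single one to pass, and the median was -0.01. Without overlap 2 were higher and 5 lower (5.88% and 14.7%, against 5.72% and 6.87% of all genes). Without d4 G+ replicate 2 these counts were 4 and 8 (11.8% and 23.5%, against 11.6% and 14.6%). They stayed the same with d3 G+ replicate 1 also left out (against 16.2% and 19.6%). Of the study's 12 endoderm genes 3 were higher and 2 lower without overlap (25% and 16.7%, against 5.72% and 6.87% of all genes), with a median of -0.05.

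**Figure D3:**
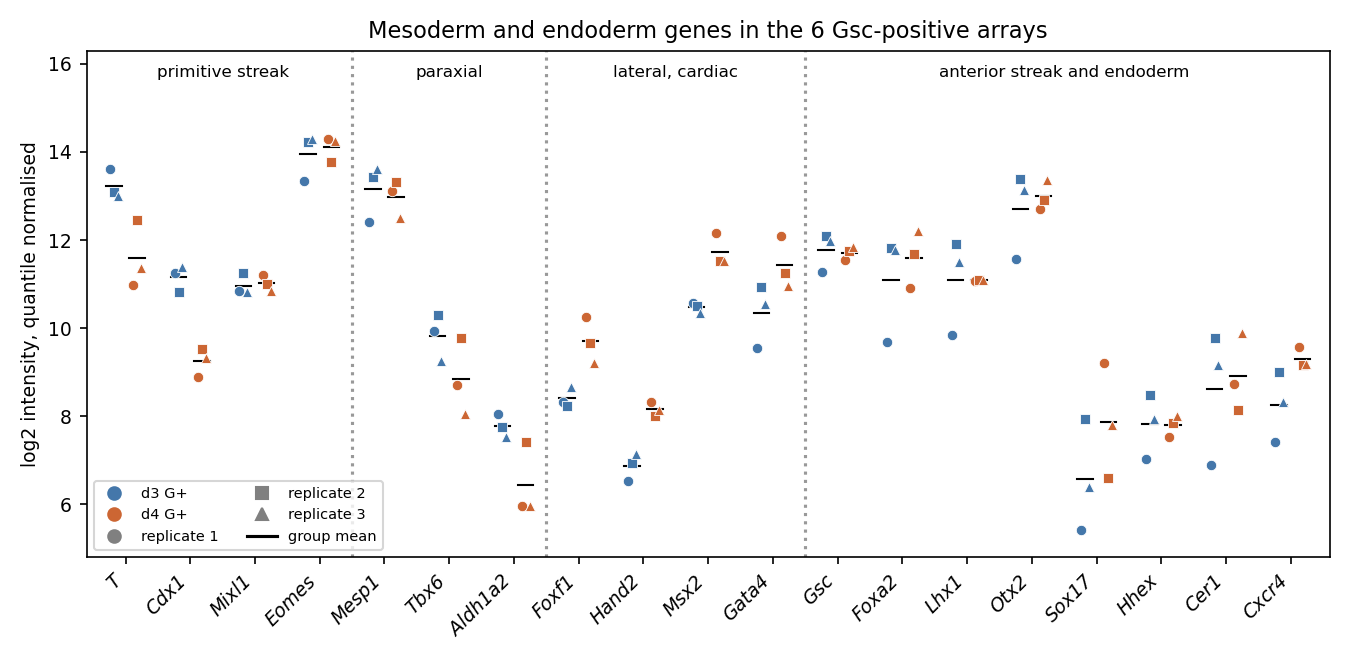
Log2 intensity of 19 mesoderm and endoderm genes on the 6 G+ arrays, with d3 in blue, d4 in orange, symbols for replicates and bars for group means. T, Cdx1 and Aldh1a2 are lower and Foxf1, Hand2, Msx2 and Gata4 higher at d4 without overlap, whereas Mixl1, Eomes and most anterior streak genes overlap and d3 replicate 1 is the lowest point for Foxa2, Lhx1, Otx2 and Sox17.

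Genes of the naive pluripotent state, which mark mESCs, had the lowest median of the lists examined, -0.84 over 18 measured genes. Of these, 9 were lower at d4 without overlap (50%, against 6.87% of all genes) and 2 were higher (11.1%, against 5.72%). Tdh was the single one to pass. Without d4 G+ replicate 2, 11 were lower (61.1%, against 14.6% of all genes) and 2 higher. These counts stayed the same with d3 G+ replicate 1 also left out (against 19.6% lower and 16.2% higher of all genes). Dppa5a had a log2 change of -0.98, Fbxo15 of -1.06, Klf2 of -0.97 and Zfp42 of -0.77, with limma adjusted p values from 0.403 to 0.742. The 2 in the other direction were Klf4 (1.1, limma adjusted p = 0.576) and Tbx3 (0.86, limma adjusted p = 1), which also act in differentiating cells. In G- cells the list median was -0.81, with 7 lower and 1 higher without overlap (against 7.24% and 4.19% of all genes). Of 19 core and formative genes 0 passed and the median was -0.22. Without overlap 2 were lower (10.5%, against 6.87% of all genes) and 0 were higher (against 5.72%). Pou5f1, which encodes OCT4, was at 11.60, 12.65 and 12.89 at d3 and at 10.17, 12.46 and 11.99 at d4 (log2 change -0.84, SE 0.63, limma adjusted p = 1). Its change was -1.30 without d4 G+ replicate 2 and -1.69 with d3 G+ replicate 1 also left out, and ranged up to -0.16 over the alternatives.

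Genes of the signalling pathways were mixed. Of 20 genes of FGF signalling and its feedback, Fgfr3 rose, and 7 were lower (35%, against 6.87% of all genes) and 2 higher without overlap (10%, against 5.72%), among them the feedback phosphatases Dusp4 (-1.01, limma adjusted p = 0.254) and Dusp6 (-0.70, 0.693), the ETS factors Etv1 and Etv5, and the ligands Fgf8 and Fgf17; the median was -0.23. In the Nodal pathway 0 of 20 passed, and Nodal itself had a log2 change of -0.48 (SE 0.21, limma adjusted p = 0.74). Without overlap 3 were higher (15%) and 5 lower (25%), against 5.72% and 6.87% of all genes. In the Wnt pathway Sfrp5 was the single one of 24 to pass. Without overlap 4 were higher and 4 lower (16.7% each, against 5.72% and 6.87% of all genes). The lower ones included the ligands Wnt8a (-1.1, limma adjusted p = 0.475) and Wnt5b (-0.82, limma adjusted p = 0.854). In the BMP pathway 0 of 22 passed, with 4 higher (18.2%) and 3 lower (13.6%) without overlap, against 5.72% and 6.87% of all genes. The ligand Bmp2 was at 10.25, 10.23 and 9.45 at d3 and at 11.1, 10.73 and 11.29 at d4 (log2 change 1.07, SE 0.39, limma adjusted p = 0.535). Of 16 haemato-vascular genes Gata1 and Runx1 rose at the looser threshold, as did 0.168% of all genes. The list median was 0.03.

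**Figure D4:**
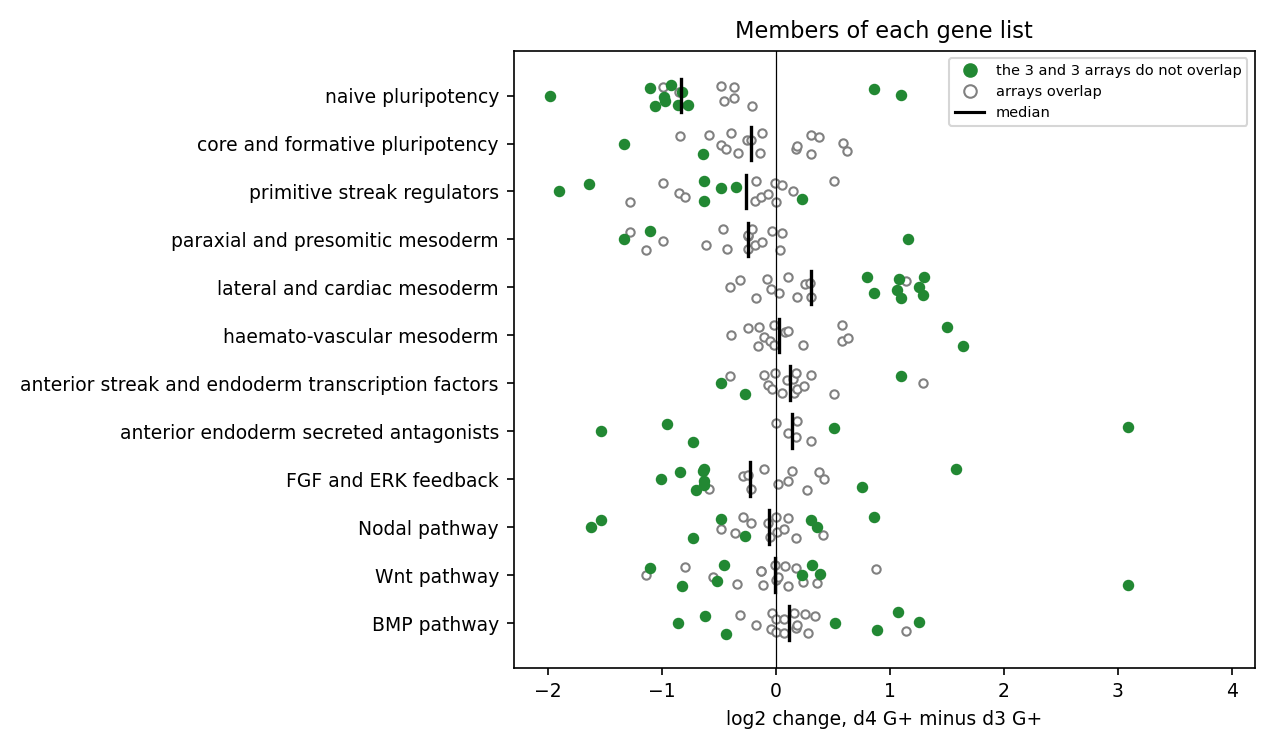
Log2 change from d3 G+ to d4 G+ of the members of 12 gene lists, 1 point per gene, filled where the 3 arrays of each day do not overlap, with a bar at the list median. Naive pluripotency genes lie mostly below 0 (median -0.84) and lateral and cardiac genes mostly above (0.31), while the endoderm lists straddle 0.

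Markers of cells that the gate could also hold were examined. Of 16 extraembryonic endoderm markers 0 passed. Without overlap 3 were higher (18.8%, against 5.72% of all genes) and 0 lower (against 6.87%). The 3 were Apoe (log2 change 1.35, limma adjusted p = 0.07), Dab2 (1.30, 0.293) and Amn (0.61, 0.693). The mean level of this list was between 6.96 and 7.55 on the d3 arrays and between 7.40 and 7.59 on the d4 arrays. Of its 16 members 7 were well above background on all 6 arrays and 13 on at least 1, whereas Afp and Ttr were so on none. Apoe rose by 1.78 without d4 G+ replicate 2 (limma adjusted p = 0.00336, range over its alternatives 0.00336 to 0.751). Of 14 neural, 12 trophoblast, 9 germ cell and 11 fibroblast markers 0 passed. The mean level of the fibroblast list was 8.65 on d3 G+ replicate 1 and 8.30 on d4 G+ replicate 2, and between 7.37 and 7.76 on the other 4 arrays. Of its 11 members 7 were well above background on all 6 arrays and 8 on at least 1, whereas Lum and Postn were not. In the germ cell list 3 were lower without overlap (33.3%, against 6.87% of all genes) and 0 higher. Its mean level was between 8.12 and 8.52 at d3 and between 7.77 and 8.03 at d4. The germ cell list median was -0.45 in G+ and 0.24 in G- cells. The part of such cells in the changes above was not tested.

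To ask whether the change was particular to G+ cells, the d3 to d4 change was compared with that of G- cells. In G- cells 0 genes were called higher and 2 lower (0.00933%), with 4 and 19 genes at the looser threshold (0.0187% and 0.0887%), 23 in all (0.107%). Without overlap 898 genes were higher (4.19%) and 1551 lower (7.24%). The interaction had 0 genes at a limma adjusted p of at most 0.05 (0%), with 1619 probes at an unadjusted p under 0.05. The lowest limma adjusted p, 0.0684, was that of Wt1, whose log2 change was 2.92 in G+ and -0.29 in G- cells. Wt1 passed under 6 alternatives that left out neither a d3 nor a d4 array, and without d4 G+ replicate 2 it passed with 5 other genes, Sfrp5 among them. Sfrp5 had a log2 change of 3.09 in G+ and 0.46 in G- cells (interaction limma adjusted p = 0.582).

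The called genes were set against the whole course of differentiation. Sfrp5 was at a mean of 6.01 in mESCs, 6.45 at d2, 6.20 in d3 G+, 9.29 in d4 G+, 10.10 in d5 Glow, 11.56 in d5 Ghigh, 14.62 in the G+H- cells of d6 and 15.13 in their G+H+ counterparts. Its level was thus higher in each later G+ population. Wt1 did not show this order: it was at 10.11 at d2, 7.20 in d3 G+, 10.13 in d4 G+, 10.50 in d5 Glow, 9.08 in d5 Ghigh, and only 7.40 in the d6 G+H+ cells. Col8a2 stayed between 9.08 and 10.33 in the G+ populations after d4. Arg1 was at 4.65 in mESCs and 5.16 at d2, was at 8.12 in d3 G+ and 8.16 in d3 G-, and was at 4.19 in d6 G+H+. Dnd1 and T were lower in each G+ population after d3, with means of 6.19 and 6.45 in d6 G+H+. The G+ arrays of d3 and d4 enter these means as well as the comparison, so they are no independent check of it.

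**Figure D5:**
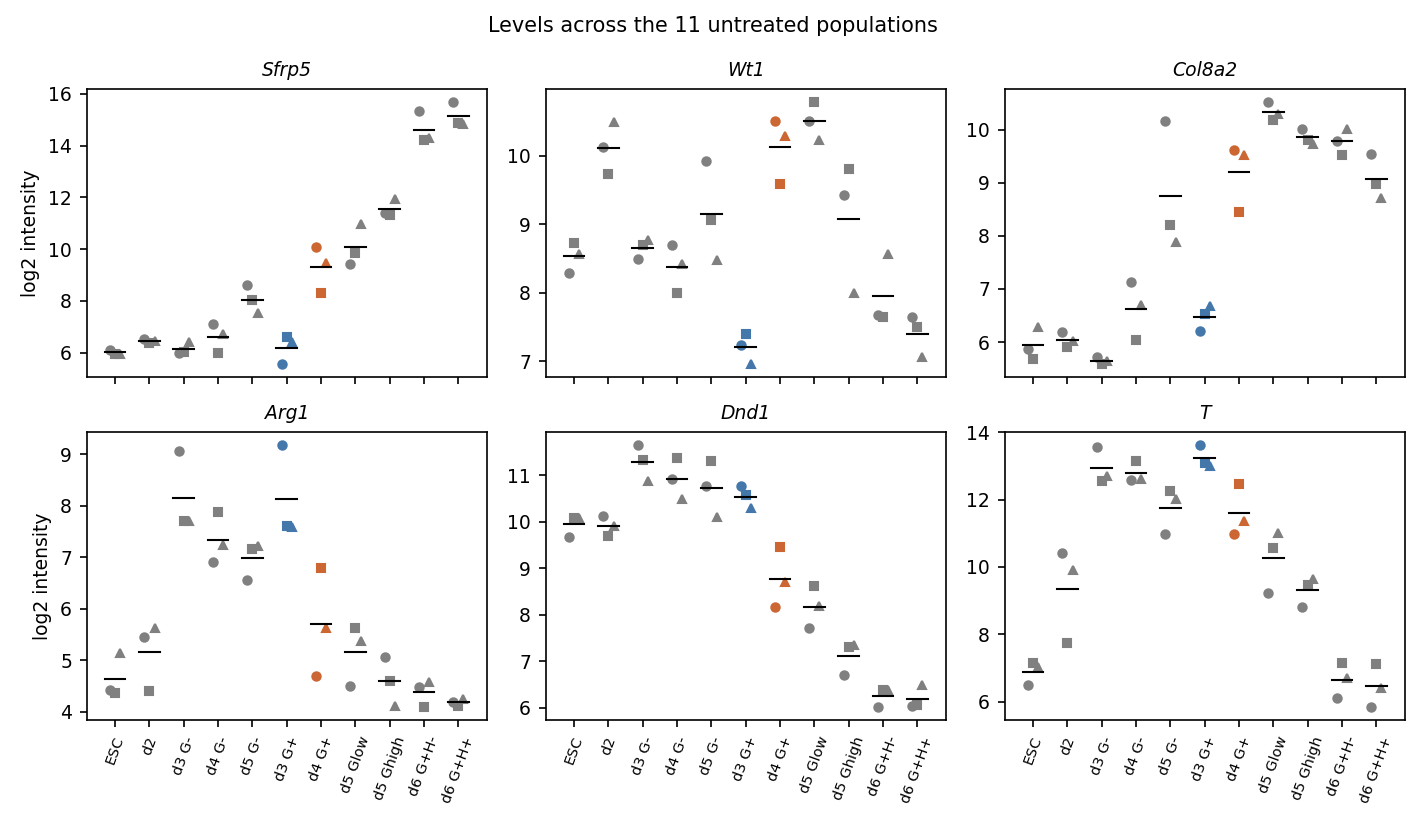
Log2 intensity of Sfrp5, Wt1, Col8a2, Arg1, Dnd1 and T on the 33 arrays of the 11 untreated populations, with a bar at each mean, symbols for replicates and d3 G+ in blue and d4 G+ in orange. Sfrp5 continues upward to 15.13 at d6, Wt1 is high at d2 and in d4 G+ and d5 Glow, and Arg1, Dnd1 and T are lower in the G+ cells after d3.

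Contrasts that share no array with d3 or d4 G+ were also used. The plan named d5 Ghigh against d5 Glow and d4 G- against d3 G-, and d2 against mESCs was added to these. Of 83 genes higher at d2 than in mESCs (0.387% of all; limma adjusted p of at most 0.01 and log2 change of at least 1.5 for any of their probes), 33 were lower in d4 G+ than in d3 G+ without overlap (39.8%, against 6.87% of all genes) and 3 were higher, with a median of -0.33. They included T, Fgf8, Evx1, Lef1 and Wnt8a, and Ccno and Ptgs1 were the 2 of the 83 that fell at the looser threshold. Wt1 was 1 of the 3 that were higher. Whether the fall of these genes is particular to G+ cells was not tested. Of 298 genes lower at d2 than in mESCs (1.39%), 27 were higher and 26 lower without overlap (9.06% and 8.72%, against 5.72% and 6.87% of all genes). Of 52 genes higher in d5 Ghigh than in d5 Glow (0.243%), 6 were higher and 4 lower in d4 G+ without overlap (11.5% and 7.69%, against the same shares of all genes). Their median was 0.07, and 0 of them passed the looser threshold. Of 7 genes lower in d5 Ghigh, 2 were lower without overlap (28.6%, against 6.87% of all genes) and 0 higher (against 5.72%). Their median was -0.20. Of the 2 genes lower in d4 G- than in d3 G-, 1 was lower without overlap, with a median of -0.62.

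Detection by the scanner software was also counted. Of 21426 genes, 12959 were well above background on all 6 arrays and 4232 on none. From 0 of 3 arrays at d3 to 3 of 3 at d4 moved 7 genes, 0 of which passed the looser threshold, among them, picked after its values were seen, Itga4, an integrin subunit (at least 2.24-fold higher, limma adjusted p = 0.355). In the other direction moved 20 genes, 1 of which passed: Nlrc4, an inflammasome component, was at least 2.18-fold lower at d4 (limma adjusted p = 0.0482). Tcl1, an mESC gene, was well above background on 3 d3 arrays and on no d4 array (at least 2.14-fold lower, limma adjusted p = 0.317).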

How the data were processed

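Agilent one-colour arrays held 55681 probes, and 3 arrays, from 3 independent experiments, were made for each of 14 groups. The authors deposited scanner intensity and a table of log2 values, which they background-corrected with normexp, quantile normalised across arrays and averaged over spots of one probe. The deposited log2 table was used here, and recomputing it from the deposited intensity gave a correlation of at least 0.999979 on each array. Quantile normalisation gives every array the same distribution, so a shift common to most genes would not be seen.

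With limma 3.58.1 (R 4.3.3), a model with 1 mean per group was fitted to the 42 arrays, with Benjamini-Hochberg adjustment over 55681 probes. A gene was called where any of its probes changed by 1.5 or more on the log2 scale with an adjusted p no larger than 0.01, with a looser threshold of 0.05. A gene's printed value is that of its brightest probe by the mean of the 42 arrays. RefSeq accessions named 21426 genes from 28291 probes, and 27390 probes had no such name. No overlap means that all 9 pairs of arrays differ one way. A permutation of 3 against 3 arrays cannot go below p = 0.1, so none was used. A lower bound on a fold uses the dimmest probes well above background on each array of the dim group.

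The named genes were the called ones, the 12 largest rises and 12 largest falls at the looser threshold among those that moved one way in all 9 pairs, up to 6 members per list that passed or did not overlap (largest change first), and a fixed set of sort, mesoderm and endoderm markers such as Gsc, T and Sox17. The genes and lists were chosen with earlier results of these data known. The fits were tested on simulated data. Alternatives were other normalisations, filters, array sets, blocks and left-out arrays. Leaving out d3 G+ replicate 1 and d4 G+ replicate 2 together was chosen after seeing the data. Replicate numbers were not used to pair the samples in the main fit, and whether they mark a shared differentiation is not known. The drug-treated groups entered the fit only.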

Additional observations from a re-analysis of the deposited data

Results flagged for a closer look

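By its brightest probe Pfkp, the platelet form of the glycolytic enzyme phosphofructokinase, was higher at d4 on every G+ array and lower at d4 on every G- array. In G+ cells it was at 7.70, 7.81 and 7.78 at d3 and at 8.57, 8.02 and 8.65 at d4, a log2 change of 0.65, against -0.47 in G- cells. The opposite directions drew attention to it, but the interaction had a limma adjusted p of 1. A second, dimmer Pfkp probe gave 0.12 in G+ cells (SE 0.37), with d4 higher in 6 of 9 pairs.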

How the results depend on the processing

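The 8 called genes kept their direction in every alternative run. Their arrays did not overlap between the days, so leaving out arrays could not have reversed them. Of the other named genes, 10 took the opposite sign in some, and none of these passed in any. They included the endoderm genes Foxa2, Cer1 and Otx2, with changes of 0.51, 0.31 and 0.31 in the main fit. With both arrays left out Cer1 was at -0.17, Foxa2 at -0.23, Mixl1 at -0.01 and Otx2 at -0.21. Percentile scaling put Gsc at 0.10 and Lhx1 at 0.13, and Lhx1 was at 0.01 with the offset of 50, with quantile normalisation of the untreated arrays and when recomputed from the scanner files. Slide as a fixed or random block put Lhx1 at 0.07 or 0.02 and Mixl1 at -0.08 or -0.03. Single arrays left out gave -0.55 to 0.90 for Cer1, -0.16 to 0.32 for Eomes, -0.19 to 0.87 for Foxa2, -0.32 to 0.09 for Gsc, -0.42 to 0.31 for Hhex, 0.00 to 0.24 for Kdr, -0.63 to 0.40 for Lhx1, -0.54 to 0.06 for Mesp1, -0.05 to 0.19 for Mixl1 and -0.25 to 0.65 for Otx2. Genes called higher (5) numbered 3 with quantile normalisation of the 33 untreated arrays, 3 in the fit to those arrays, 0 in the fit to the 6 arrays, 12 with both arrays left out and 0 to 23 with single arrays left out. Genes called lower (3) numbered 5 with a normexp offset of 50, 1 with slide as a fixed block, 6 with slide as a random block, 0 with 75th percentile scaling, in both untreated-array settings and in the 6-array fit, and 0 to 23 with single arrays left out. At the looser threshold the 36 higher and 22 lower became 13 and 11 with percentile scaling, 17 and 13 in both untreated-array settings, 0 and 0 in the 6-array fit and 58 and 67 with slide as a random block. The lower genes became 59 with the offset of 50, 62 with the filter on dim probes and 58 with 1 probe per gene. Single arrays left out gave 3 to 92 and 0 to 125. Non-overlapping genes then numbered 1713 to 2691 and 2098 to 3127. The causes were not tested.

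The replicate number as a block gave 4 called higher and 2 lower in the 33 untreated arrays, with 39 and 42 at the looser threshold, and 0 in every count in the 6 arrays (lowest limma adjusted p 0.44, 3912 probes unadjusted under 0.05). Deviations of same-numbered arrays correlated at 0.04, 0.09 and 0.53, the last for the replicate 3 arrays, which shared a slide. Deviations of 3 arrays from their own mean sum to 0, so these values cannot decide whether the numbers pair the samples. The interaction, 0 genes, had 1 in the 12-array fit and 2 with the filter on dim probes, with the replicate block, with slide as a fixed or random block and with 1 probe per gene, and 0 to 6 with single arrays left out.

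List medians with percentile scaling were 0.03 for study endoderm, -0.13 for primitive streak, 0.11 for haemato-vascular, -0.16 for FGF and -0.10 for core genes. With slide as a fixed block they were -0.38 for primitive streak, -0.01 for haemato-vascular and -0.30 for FGF, and as a random block 0.01 for haemato-vascular. The filter gave 0.55 for lateral and 0.24 for haemato-vascular genes, and the offset of 50 gave 0.02 for the latter. With both arrays left out the medians were -0.55 for primitive streak, -0.73 for paraxial, 0.10 for haemato-vascular and -0.40 for core genes. Single arrays left out gave -0.13 to 0.06 for study endoderm, -0.43 to -0.23 for primitive streak, -0.14 to 0.21 for anterior factors, -0.52 to -0.14 for paraxial, 0.23 to 0.48 for lateral, -0.01 to 0.09 for haemato-vascular, -0.36 to -0.03 for FGF, -1.0 to -0.54 for naive, -0.34 to -0.06 for core, -0.07 to 0.03 for definitive endoderm and -0.04 to 0.10 for study mesoderm genes. Genes near background have only bounds, and 3 arrays a day limit the precision.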

Other observations

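Some genes outside the lists stood near the threshold, and they were picked after their values were seen. The alpha-defensin genes Defa2 and Defa3, which encode antimicrobial peptides, had log2 changes of -2.14 (limma adjusted p = 0.0615) and -2.15 (limma adjusted p = 0.071). They are near-identical paralogs whose probes can share target RNA, so they do not count as separate genes. Parp12, Parp14 and Dtx3l, which are linked to the interferon response, had log2 changes of -1.28, -1.38 and -1.36, with limma adjusted p values from 0.068 to 0.071. Tapbpl and Apol9b fell by 1.18 and 1.20 on the log2 scale (limma adjusted p = 0.0216 and 0.0251).

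Hoxb1, a homeobox gene of the posterior streak, had a log2 change of -2.42 (limma adjusted p = 0.0771) with no overlap between the days. Chil3, a chitinase-like secreted protein, had the lowest change of all genes, -3.21 (SE 1.05, limma adjusted p = 0.385), with d4 higher in 2 of 9 pairs.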
